A study of Mus musculus with 27 samples.

Results

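DNA replication and S phase genes were followed in mouse embryonic fibroblasts (MEFs) during the first days of their reprogramming to induced neurons (iNs). The genes were taken from a fixed list of 42 symbols, and all 42 were found by name among the 54532 genes of the expression table and passed the filter for testing. They cover origin licensing (11 genes), helicase activation (6), primase and the DNA polymerases (7), the sliding clamp, its loader, and lagging strand synthesis (7), deoxynucleotide supply (4), regulators of the G1/S transition (5), and maintenance of DNA methylation (2).

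Bulk RNA-seq was performed on 27 libraries, with 3 libraries for each of 3 genotypes (WT, *Per1*-/-, and *Per2*-/-) on each of 3 days (0, 2, and 4). The knockout mice carried the *Per1* tm1Drw or the *Per2* tm1Drw allele on a B6.129 background. MEFs came from mid-gestation embryos without the head and the heart, several embryos were pooled in a dish, and such cultures can hold other cell types such as macrophages. In the protocol of the paper, cells received lentiviruses before day 0. These carried neuronal transcription factors behind a doxycycline-responsive promoter and the rtTA activator. The labels do not say whether the cells of the day 0 libraries had received them. On day 0 the serum medium was exchanged for the serum-free N3 medium with doxycycline. Induction of these factors, removal of serum, and time in culture therefore cannot be told apart in the comparisons with day 0. If the day 0 cells were without virus, the same holds for transduction itself. The labels call the samples biological replicates without saying whether they came from separate embryo preparations, and p-values measure the spread between these libraries. In bulk samples, fewer cells of a type and less RNA per cell also cannot be told apart.

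Libraries held 15815013 to 24264097 fragments. *Col1a1*, a fibroblast collagen, stood at 1200 FPKM (fragments per kilobase of transcript, scaled to library size with the size factors of the authors) in WT cells on day 0, and *Pecam1*, an endothelial marker, at 0.0489. Of 7 endothelial markers, 5 including *Pecam1* had a mean under 0.5 FPKM on day 0, and *Kdr* and *Esam* did not. From day 0 to day 2 in WT cells, limma called *Kdr* lower and *Tek* higher (log2 fold change -2.53 and 2.87). *Pou3f2* (*Brn2*), a transduced factor, was listed at 0.00297 FPKM on average in WT cells on day 0 and stood at 293 on day 2. Although the samples are all labelled induced neurons, *Map2* was at 0.737 FPKM on day 0 and 9.97 on day 4 in WT cells, and *Rbfox3*, a marker of mature neurons, stayed under a mean of 0.5 FPKM on all 3 days. *Per1* was 4.11 ± 0.866 FPKM (SD, n = 3) in *Per1*-/- cells and 5.78 ± 0.479 in WT cells on day 0, a difference not called by limma (adjusted p = 0.771). *Per2* was 1.93 ± 0.068 FPKM in the libraries labelled *Per2*-/- and 0.894 ± 0.0709 in WT libraries on day 0. This transcript was thus higher, not lower, under the *Per2*-/- label (log2 fold change 1.03, limma adjusted p = 0.00114), and these libraries are named by their label below. Which exons the 2 alleles lack was not analysed here, so that these gene-level values are a limited check of the labels.

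Before S phase, the origin recognition complex, CDC6, and CDT1 load the MCM2-7 helicase onto origins of replication, a step called licensing, which geminin blocks after S phase has begun. CDC45 and the GINS complex then turn the loaded MCM ring into an active helicase, primase and the replicative polymerases copy the strands behind it, and PCNA, loaded by the RFC complex, holds the polymerases on DNA. Many of the genes are transcribed in late G1 and S phase by E2F factors, which cyclin E and its kinase help to release from the RB proteins. Fibroblasts cycle in serum, and neurons do not divide.

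Promoter windows were examined for the binding letters of E2F, because E2F is the textbook regulator of these genes. RefSeq windows of 250 bases before to 50 bases after the transcription start (GRCm38.p6) were found for 33 of the 42 genes, and several starts of a gene were counted together. The words searched on both strands were TTTCCCGC, TTTCGCGC, TTTGCCGC, and TTTGGCGC, and words on opposite strands may share letters. At least 1 of them was present in 16 of the 33 genes (48.5%), compared with 2.6% of all 27025 genes with a window and 4.58% of the tested genes. Of 38 genes in a list of other replication genes, 23.7% had such a word, as did 3.85% of 26 mitosis genes. The cell cycle homology words TTTGAA and TTTAAA were found in 36.4% of the members with a window and in 84.6% of the mitosis genes. The share was 30.6% of all genes with a window and 22.4% of the tested genes. A match describes these letters in the window and does not show a bound site.

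Shown here are the windows of 4 genes with an E2F word, namely the members of that kind with the largest changes in WT cells between days 0 and 2, and of 1 gene without it, *Rrm2*, whose transcript fell the most by day 4. They are *Orc1* (chr4:108579204-108579503, plus strand), *Cdt1* (chr8:122567765-122568064, plus strand), *Mcm3* (chr1:20820263-20820562, minus strand), *E2f2* (chr4:136172024-136172323, plus strand), and *Rrm2* (chr12:24708004-24708303, plus strand), each written 5′ to 3′ along the gene with the E2F words in capitals.
Orc1: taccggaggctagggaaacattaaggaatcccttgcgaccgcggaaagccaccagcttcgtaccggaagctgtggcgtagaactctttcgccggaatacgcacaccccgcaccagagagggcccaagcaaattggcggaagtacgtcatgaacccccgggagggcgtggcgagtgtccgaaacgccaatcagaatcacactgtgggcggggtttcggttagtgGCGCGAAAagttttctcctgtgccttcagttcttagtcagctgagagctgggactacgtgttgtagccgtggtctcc
Cdt1: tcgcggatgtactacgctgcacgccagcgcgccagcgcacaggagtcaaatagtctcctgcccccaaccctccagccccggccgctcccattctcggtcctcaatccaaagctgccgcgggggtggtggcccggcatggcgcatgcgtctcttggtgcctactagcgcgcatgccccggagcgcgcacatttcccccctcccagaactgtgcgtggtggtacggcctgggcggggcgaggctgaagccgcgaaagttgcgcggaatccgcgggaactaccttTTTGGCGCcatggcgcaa
Mcm3: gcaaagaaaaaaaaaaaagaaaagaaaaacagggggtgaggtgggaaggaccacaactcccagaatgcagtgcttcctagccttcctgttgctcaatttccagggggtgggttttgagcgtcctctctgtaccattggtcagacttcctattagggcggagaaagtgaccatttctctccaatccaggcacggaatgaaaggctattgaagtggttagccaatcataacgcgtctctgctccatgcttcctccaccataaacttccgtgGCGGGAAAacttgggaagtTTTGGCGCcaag
E2f2: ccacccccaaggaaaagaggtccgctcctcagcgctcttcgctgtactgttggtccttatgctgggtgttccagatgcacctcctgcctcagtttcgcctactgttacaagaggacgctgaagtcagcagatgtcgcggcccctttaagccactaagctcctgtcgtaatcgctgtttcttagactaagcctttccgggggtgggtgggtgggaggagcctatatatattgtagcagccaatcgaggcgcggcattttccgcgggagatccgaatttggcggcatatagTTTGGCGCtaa
Rrm2: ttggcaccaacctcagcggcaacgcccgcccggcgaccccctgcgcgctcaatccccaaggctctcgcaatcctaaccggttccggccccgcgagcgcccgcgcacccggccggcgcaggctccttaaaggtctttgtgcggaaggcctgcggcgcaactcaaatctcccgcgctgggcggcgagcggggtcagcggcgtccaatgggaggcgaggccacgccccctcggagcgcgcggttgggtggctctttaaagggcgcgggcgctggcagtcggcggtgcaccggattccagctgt
The word of *Orc1* began 27 bases before the first transcribed base, and *Mcm3* had 2 words, both after it. The *Rrm2* window had none of the E2F words on either strand. As a description without a test, the median log2 fold change of WT cells on day 4 against day 0 was -0.46 over the 16 genes with a word and -0.75 over the 17 without. This split depends on the starts listed by RefSeq. The only *E2f1* window (chr2:154569377-154569676, minus strand), which had no word, lay inside the gene span that ends at 154569892, so the bases before that span were not searched.

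Transcript levels of the members were lower on day 4 than on day 0 in each of the 3 genotypes, with a smaller shift on day 2. In WT cells, 40 of the 42 members were fitted below their day 0 level on day 4, compared with 51% of all tested genes. By limma, 21 members (50%) were called lower and 0 higher, a call being an adjusted p under 0.05 together with a log2 change past 0.58 in either direction. Of all 14932 tested genes, 20.9% were called lower and 22.9% higher in the same comparison. On day 2, in contrast, 6 members (14.3%) were called lower in WT cells, compared with 19.7% of the tested genes, and 1 member, *E2f2*, was called higher, compared with 20.8%. The share of members called lower was therefore under that of the transcriptome on day 2 and above it on day 4. The median log2 fold change of the members in WT cells was -0.32 on day 2 and -0.61 on day 4, while the median over all tested genes was -0.01 and -0.02. All 3 WT libraries of day 4 lay below all 3 of day 0 for 37 members, compared with 35.5% of all tested genes, and those of day 2 did so for 26 members, compared with 34.6%.

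In *Per1*-/- cells, 14 members (33.3%) were called lower on day 2 (background 18.8%, with 20.8% higher) and 27 on day 4 (background 20.4%, with 22.6% higher), with medians of -0.48 and -0.72. These counts rested in part on 1 library, as described below. In the libraries labelled *Per2*-/-, 6 members were called lower on day 2 (background 16.8%, with 18.7% higher) and 21 on day 4 (background 18.8%, with 21.6% higher), with medians of -0.33 and -0.57. Lower levels on day 4 were called in all 3 genotypes for 20 members, in 2 genotypes for *Orc6* and *Rfc4*, and in 1 genotype for *Mcm2*, *Mcm4*, *Gins1*, *Gins4*, and *Rfc5*, while 15 members were called in none. On day 2, 4 members (*Orc1*, *Gins2*, *Rrm2*, and *Ccne1*) were called lower in all 3 genotypes. The share of all tested genes called lower in all 3 genotypes was not computed for either day, so these overlaps have no background.

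These changes are relative to the scaling of the authors, under which the typical gene did not move between days. The FPKM of a library summed to 333295 to 374624 on day 0 and to 261289 to 343225 on days 2 and 4. When each library was rescaled to a common sum (TPM), the median of all genes itself rose by 0.41 in WT cells on day 2 and by 0.37 on day 4 on the log2 scale. The members' median then turned to 0.10 on day 2 and remained below 0, at -0.22, on day 4, so the direction on day 2 flipped with the scaling. Relative to the median of all genes it was -0.30 on day 2 and -0.58 on day 4. Rescaling whole libraries leaves this gap nearly as it was by construction. Under TPM, 2 members were called lower and 3 higher in WT cells on day 2, and 10 lower and 1 higher on day 4. In *Per1*-/- cells the TPM calls were 2 lower and 1 higher on day 2 and 17 lower and 0 higher on day 4. Under the *Per2*-/- label they were 1 lower and 1 higher, then 11 lower and 0 higher. Shares of all genes called under TPM were not computed, and those given above do not apply to these counts.

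**Figure D1:**
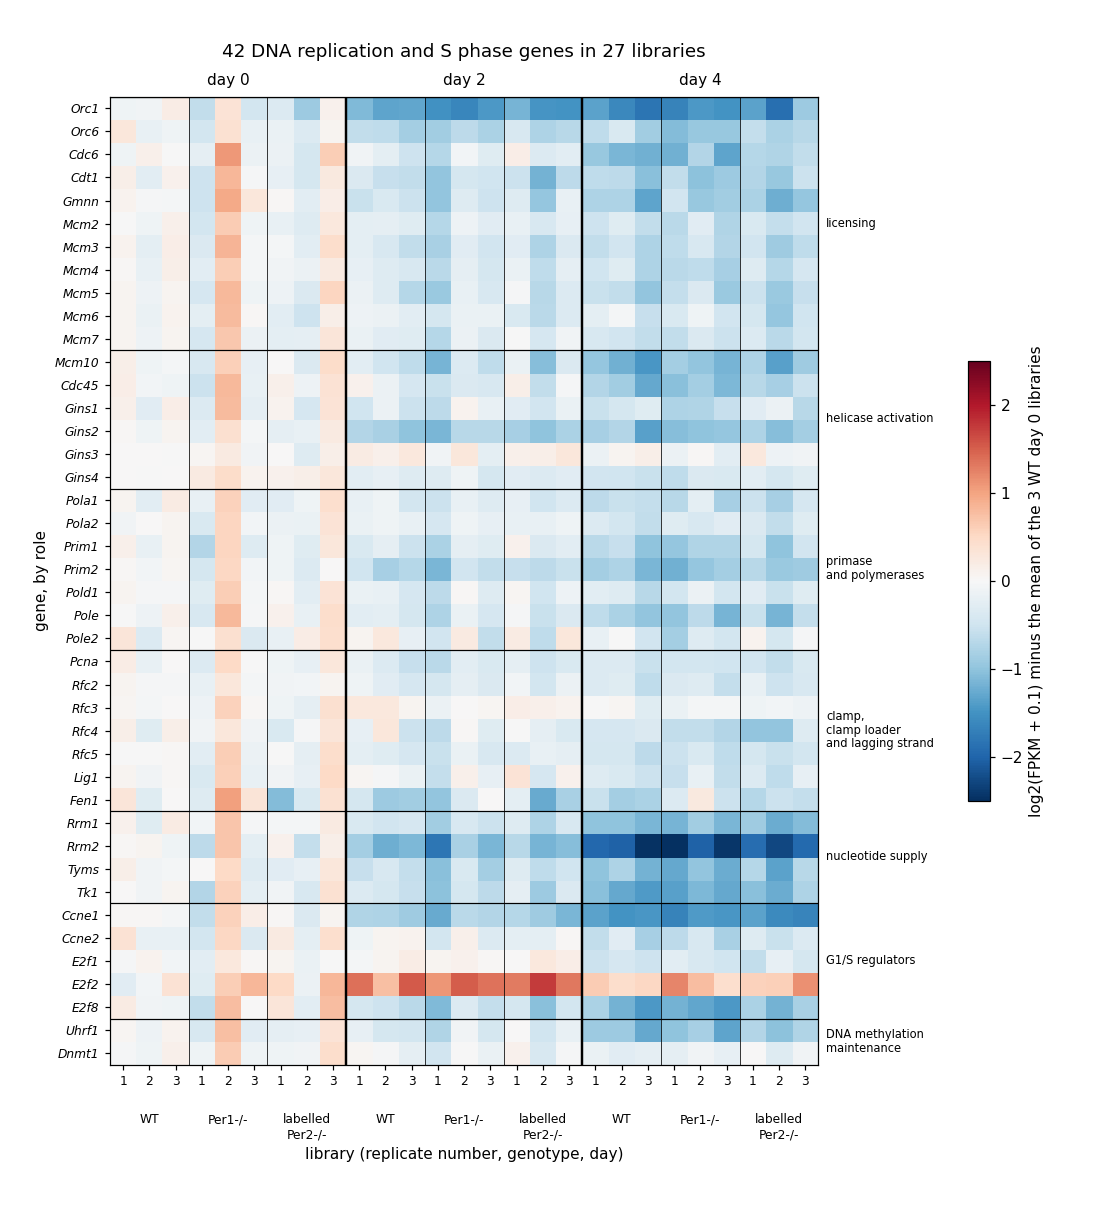
Heat map of the 42 members (rows, by role) in the 27 libraries (columns, by day, genotype, and replicate number), colored by log2(FPKM + 0.1) minus the mean of the 3 WT libraries of day 0. Blue cells on day 4 mark the lower levels of most members, the *E2f2* row is red on day 2, and the *Per1*-/- library numbered 2 on day 0 stands out as a red column. With TPM scaling the median of the WT members on day 2 turned from -0.32 to 0.10.

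All 4 nucleotide supply genes were called lower on day 4 in each genotype (background 20.9% in WT, 20.4% in *Per1*-/-, and 18.8% in *Per2*-/- labelled cells). *Rrm2* had the largest log2 fold change of the 42 members. *Rrm2*, which encodes the regulated subunit of ribonucleotide reductase, was at 57.4, 58.8, and 51.8 FPKM in the WT libraries of day 0 (chr12:24708241-24714146, plus strand, in all text below GRCm38 coordinates of the gene). It was at 31.1, 23.8, and 25.7 after 2 days and 14.2, 13.6, and 9.96 after 4 days. The libraries of the 3 days did not overlap. For WT cells the log2 fold change against day 0 came to -1.06 ± 0.28 (SE) on day 2 and -2.16 ± 0.28 on day 4, with limma adjusted p = 0.00272 and 1.20e-06. *Per1*-/- libraries had 35.4, 90.1, and 46.9 FPKM of *Rrm2* on day 0 and 9.56, 13.7, and 10.3 on day 4. The libraries labelled *Per2*-/- went from 59.9, 36.8, and 62.3 to 14.8, 11.5, and 14.5. *Rrm2* was also the sole member called lower between days 2 and 4 in all 3 genotypes, with log2 fold changes of -1.10, -1.07, and -1.07 in WT, *Per1*-/-, and *Per2*-/- labelled cells.

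*Rrm1* (the large subunit of the same enzyme, chr7:102441695-102469771, plus strand) was at 20.8, 15.7, and 22.3 FPKM in WT cells on day 0, 14.9, 13.8, and 14.5 after 2 days, and 9.67, 9.59, and 8.78 after 4 days. The fall by day 4 was called in all 3 genotypes, at -1.05, -1.26, and -1.12 on the log2 scale in the same order. On average *Rrm2* went from 56 to 12.6 FPKM in WT cells while *Rrm1* went from 19.6 to 9.35. Thymidylate synthase (*Tyms*, which makes dTMP) and thymidine kinase (*Tk1*, which salvages thymidine) were called lower on day 4 in all 3 genotypes, with log2 fold changes in WT cells of -0.99 and -1.25. A pseudogene named after *Tyms* exists, so that its reads could have been divided between copies. Among 10 other nucleotide supply genes, 5 were called lower and 0 higher in WT cells on day 4 (background 20.9% and 22.9%). *Nme1*, a nucleoside diphosphate kinase, and *Ctps*, a CTP synthase, fell by 1.61 and 0.95 on the log2 scale on day 2.

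Licensing genes were lower by day 4 to unequal degrees. In WT cells, 7 of the 11 were called lower on day 4 (background 20.9%) and 2 on day 2 (*Orc1* and *Orc6*, background 19.7%). *Orc1*, the subunit of the origin recognition complex that binds in G1, was at 2.64, 2.68, and 3.28 FPKM on day 0, 1.28, 1.08, and 1.09 after 2 days, and 1.06, 0.865, and 0.73 after 4 days (chr4:108579423-108614833, plus strand). Its libraries did not overlap between days, and the log2 fold change against day 0 was -1.24 ± 0.26 for day 2 and -1.60 ± 0.26 for day 4. It was also called in *Per1*-/- cells (-1.28 and -1.30) and under the *Per2*-/- label (-0.99 and -0.99). In the latter group the day 4 libraries had 1.07, 0.699, and 1.47 FPKM and overlapped those of day 0, which had 2.22, 1.46, and 3.07. *Orc1* is among the lowest members, with 51 fragments in its lowest library.

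*Cdc6* and *Cdt1*, the loading factors, and *Gmnn*, which encodes geminin, were called lower on day 4 in all 3 genotypes. In WT cells *Cdc6* was 2.44 ± 0.203 FPKM on day 0 and 1.996 ± 0.315 on day 2 and then 1.09 ± 0.107 on day 4 (SD, n = 3), and it was called on day 4 but not on day 2. *Cdt1* and *Gmnn*, an activator and an inhibitor of licensing, were both lower, from 9.43 ± 1.47 to 5.45 ± 0.845 FPKM and from 8.84 ± 0.488 to 4.6 ± 0.955.

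The MCM helicase genes had smaller log2 fold changes. *Mcm4* (chr16:15623897-15637400, minus strand) was at 27.5, 23.5, and 29.9 FPKM in WT cells on day 0 and 18.9, 21.8, and 15.6 on day 4. *Mcm6* (chr1:128331590-128359664, minus strand) was at 25.6, 21.7, and 26 on day 0 and 20.5, 23.4, and 16.4 on day 4. *Mcm7* (chr5:138164583-138172422, minus strand) was at 21.8, 19, and 21.7 on day 0 and 15.7, 15, and 13.5 on day 4. WT libraries of days 0 and 4 did not overlap for *Mcm4* and *Mcm7* and did for *Mcm6*, and none of these 3 was called in WT cells. The log2 fold changes on day 4 were -0.53 ± 0.19 for *Mcm4*, -0.29 ± 0.21 for *Mcm6*, and -0.50 ± 0.20 for *Mcm7*, with limma adjusted p = 0.0181, 0.23, and 0.0377. Of the 6 subunits, *Mcm3* and *Mcm5* were called lower on day 4 in all 3 genotypes, *Mcm2* and *Mcm4* in *Per1*-/- cells, and *Mcm6* and *Mcm7* in none. The subunits form 1 ring, yet their log2 fold changes in WT cells on day 4 ranged from -0.72 for *Mcm5* to -0.29 for *Mcm6*, a gap that was not tested.

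Among the helicase activation genes, *Mcm10*, *Cdc45*, and *Gins2* were called lower on day 4 in all 3 genotypes. *Mcm10*, which helps to activate the helicase, went from 2.15 ± 0.21 to 0.881 ± 0.163 FPKM in WT cells and *Cdc45* from 4.32 ± 0.451 to 2.19 ± 0.429 (SD, n = 3). *Gins2* (chr8:120578633-120589304, minus strand) was at 6.04, 5.46, and 6.16 FPKM on day 0, 3.5, 3.3, and 2.89 after 2 days, and 3.27, 3.51, and 2.24 after 4 days in WT cells. It was called lower on day 2, and its libraries of days 2 and 4 overlapped. Since 67.3% of its exonic bases are also covered by *Gse1* on the other strand and the libraries did not keep strand, this value is uncertain.

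*Gins4* (chr8:23226616-23237659, minus strand) was at 18, 17.7, and 18.1 FPKM in WT cells on day 0, 15, 15.5, and 14.3 after 2 days, and 12.9, 12.7, and 12.1 after 4 days. Its log2 fold change on day 4 of -0.51 ± 0.09 passed the test (limma adjusted p = 6.20e-05) but was under the fold threshold, and in *Per1*-/- cells it was called at -0.72. *Gins3*, of the same complex, was 2.38 ± 0.0087 FPKM on day 0, 2.75 ± 0.132 on day 2, and 2.42 ± 0.246 on day 4 in WT cells and was called in no genotype. Its WT libraries of day 2 lay above those of day 0.

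Primase and polymerase genes were called in part. *Prim1* and *Prim2*, the primase subunits, *Pola1*, the catalytic subunit of polymerase alpha, and *Pole*, that of polymerase epsilon, were called lower on day 4 in all 3 genotypes, with log2 fold changes in WT cells of -0.75, -0.92, -0.60, and -0.80. The genes of this role with the highest levels were not called. *Pola2* (the second subunit of polymerase alpha, chr19:5940543-5964206, minus strand) was at 9.42, 10.03, and 10.5 FPKM in WT cells on day 0 and 7.88, 7.18, and 6.47 on day 4. *Pold1* (the catalytic subunit of polymerase delta, chr7:44532746-44548849, minus strand) was at 9.27, 8.61, and 8.67 on day 0 and 7.36, 7.01, and 5.45 on day 4. Their WT libraries of days 0 and 4 did not overlap, and the log2 fold changes were -0.47 ± 0.16 and -0.43 ± 0.21, with limma adjusted p = 0.0166 and 0.076. *Pole2*, a subunit of polymerase epsilon (chr12:69201773-69228195, minus strand), was among the members that changed least on day 2. Its WT libraries had 3.1, 1.95, and 2.58 FPKM on day 0, 2.61, 3.01, and 2.14 after 2 days, and 2.17, 2.5, and 1.76 after 4 days and overlapped between all days.

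Of the 7 clamp, clamp loader, and lagging strand genes, 0 were called in WT cells on either day. The backgrounds were 19.7% lower and 20.8% higher on day 2 and 20.9% lower and 22.9% higher on day 4. On day 4, 2 were called lower in *Per1*-/- cells (*Rfc4* and *Rfc5*, background 20.4%) and 1 in the libraries labelled *Per2*-/- (*Rfc4*, background 18.8%). Whether these small counts differ from the backgrounds was not tested. At an unadjusted p under 0.05, 2 of the 7 were found in WT cells on day 2 (background 63.9%) and 3 on day 4 (background 67%). *Pcna* (chr2:132249162-132253314, minus strand), the member with the highest level, was at 54.2, 41.9, and 48.3 FPKM on day 0, 42.7, 37.9, and 32.2 after 2 days, and 37.5, 37.5, and 32.7 after 4 days in WT cells. On day 4 all 3 libraries were below those of day 0, with a log2 fold change of -0.42 ± 0.17 (limma adjusted p = 0.0335), under the fold threshold. Pseudogenes named after *Pcna* exist, and its reads could have been divided between copies. *Lig1*, encoding the ligase that joins Okazaki fragments (chr7:13277283-13311433, plus strand), was at 12, 10.8, and 11.7 on day 0, 11.8, 11.3, and 10.2 after 2 days, and 9.14, 8.78, and 7.86 after 4 days. Its libraries of days 0 and 2 overlapped (-0.05 ± 0.23 on the log2 scale) and was not called on day 4 (-0.42 ± 0.23). *Fen1*, the flap endonuclease, was the lowest member (0.466 to 2.65 FPKM over the 27 libraries), and 84.2% of its exonic bases are shared with *Tmem258* and another gene on the other strand, so its level is uncertain.

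**Figure D2:**
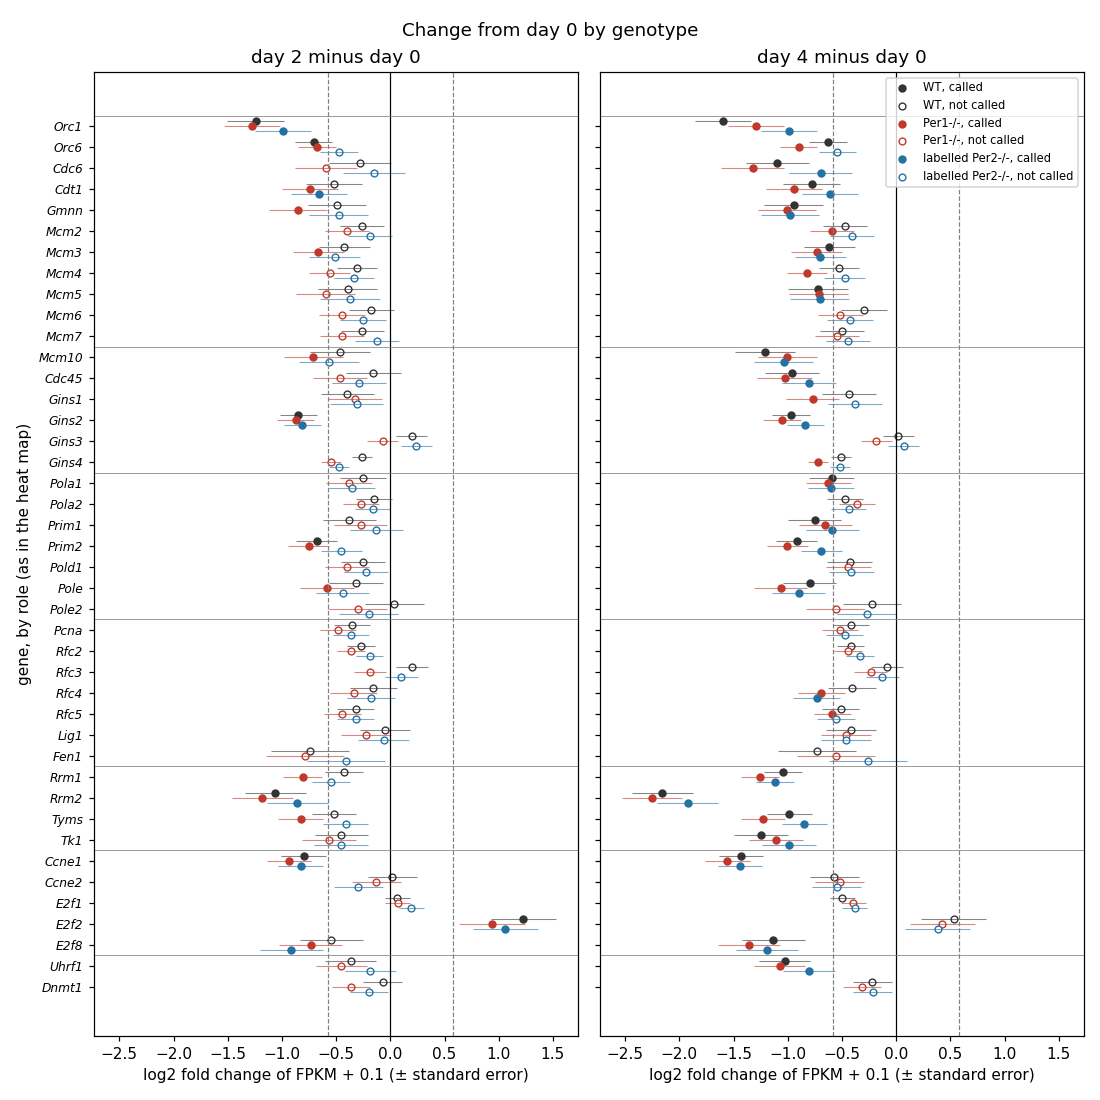
Log2 fold change of each member from day 0 to day 2 (left) and to day 4 (right) in WT (black), *Per1*-/- (red), and *Per2*-/- labelled cells (blue), with the standard error as a line, filled points for called members, and dashed lines at a log2 fold change of 0.58 in either direction. On day 4 the nucleotide supply genes and *Ccne1* lie far left, with *Rrm2* at -2.16 in WT cells, and the clamp and loader genes of WT cells show open points. With TPM scaling, the members fitted below 0 in WT cells on day 2 went from 36 to 13 of 42. *Mcm6* and *Rrm1* were among those that changed sign.

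G1/S regulators were called in both directions. *Ccne1*, which encodes cyclin E1 (chr7:38097984-38107534, minus strand), fell in all 3 genotypes on both days. Its WT libraries had 18.8, 18.9, and 17.7 FPKM on day 0, 11, 10.8, and 9.92 after 2 days, and 7.2, 6.52, and 6.68 after 4 days with no overlap between days. The log2 fold changes were -0.80 ± 0.20 and -1.43 ± 0.20, with limma adjusted p = 0.00206 and 4.07e-06. In *Per1*-/- cells it went from 12.1, 27.6, and 20.7 to 5.77, 6.88, and 6.65, and in the libraries labelled *Per2*-/- from 18.9, 14.4, and 19.4 to 7.25, 6.06, and 5.79. *Ccne2*, which encodes the related cyclin E2 (chr4:11191351-11204779, plus strand), was called on no day. Its WT libraries had 6.6, 4.52, and 4.51 FPKM on day 0, 4.74, 5.4, and 5.48 after 2 days, and 3.32, 4.2, and 2.86 after 4 days, and those of day 2 lay within the range of day 0. The ranges of days 0 and 4 did not overlap, with a log2 fold change of -0.57 ± 0.23 (limma adjusted p = 0.0331) just under the fold threshold. The difference between the 2 cyclins was not tested.

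*E2f1*, an activating E2F (chr2:154559407-154569892, minus strand), was at 17.8, 19.4, and 17.4 FPKM in WT cells on day 0, 17.6, 19.1, and 20.6 after 2 days, and 12.4, 13.6, and 12.6 after 4 days. Its libraries of days 0 and 2 overlapped, and it was lower in all WT libraries of day 4, at -0.50 ± 0.11 on the log2 scale (limma adjusted p = 7.88e-04), under the fold threshold. *E2f2*, another activating E2F (chr4:136172394-136196057, plus strand), was the sole member called higher. It was at 0.484, 0.574, and 0.807 FPKM in WT cells on day 0, 1.74, 1.1, and 1.96 after 2 days, and 0.998, 0.865, and 0.913 after 4 days. In *Per1*-/- cells it was at 0.476, 0.983, and 1.17, then 1.41, 1.93, and 1.71, then 1.56, 1.12, and 0.845. In the libraries labelled *Per2*-/- it was at 0.896, 0.543, and 1.17, then 1.66, 2.27, and 1.66, then 0.965, 0.977, and 1.47. In each genotype all 3 libraries of day 2 were above all 3 of day 0, and in WT and *Per2*-/- labelled cells all 3 of day 4 were below those of day 2, a difference that was not called. The log2 fold changes on day 2 were 1.22, 0.94, and 1.06 in WT, *Per1*-/-, and *Per2*-/- labelled cells, with limma adjusted p = 0.00145, 0.0107, and 0.00506. On day 4 they were 0.53, 0.43, and 0.38 and not called. The *E2f2* level was low throughout (0.476 to 2.27 FPKM). *E2f8*, a repressive E2F that is itself an S phase gene, was called lower on day 4 in all 3 genotypes, from 3.61 ± 0.454 to 1.61 ± 0.398 FPKM in WT cells.

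Of the 2 genes that maintain DNA methylation behind the fork, 1 was called lower. *Uhrf1*, which recognizes hemimethylated DNA (chr17:56303321-56323486, plus strand), was at 21.3, 18.8, and 22 FPKM in WT cells on day 0, 17.9, 15.3, and 15 after 2 days, and 10.9, 11, and 8.5 after 4 days. *Dnmt1*, the maintenance methyltransferase (chr9:20907209-20959888, minus strand), was at 20.8, 19.6, and 23 on day 0, then 21.8, 20.6, and 18, then 18.9, 17.4, and 18.1. *Uhrf1* was called lower on day 4 in all 3 genotypes (-1.03, -1.08, and -0.80 on the log2 scale) and *Dnmt1* in none (-0.22, -0.31, and -0.22). The difference between the 2 genes was not tested.

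**Figure D3:**
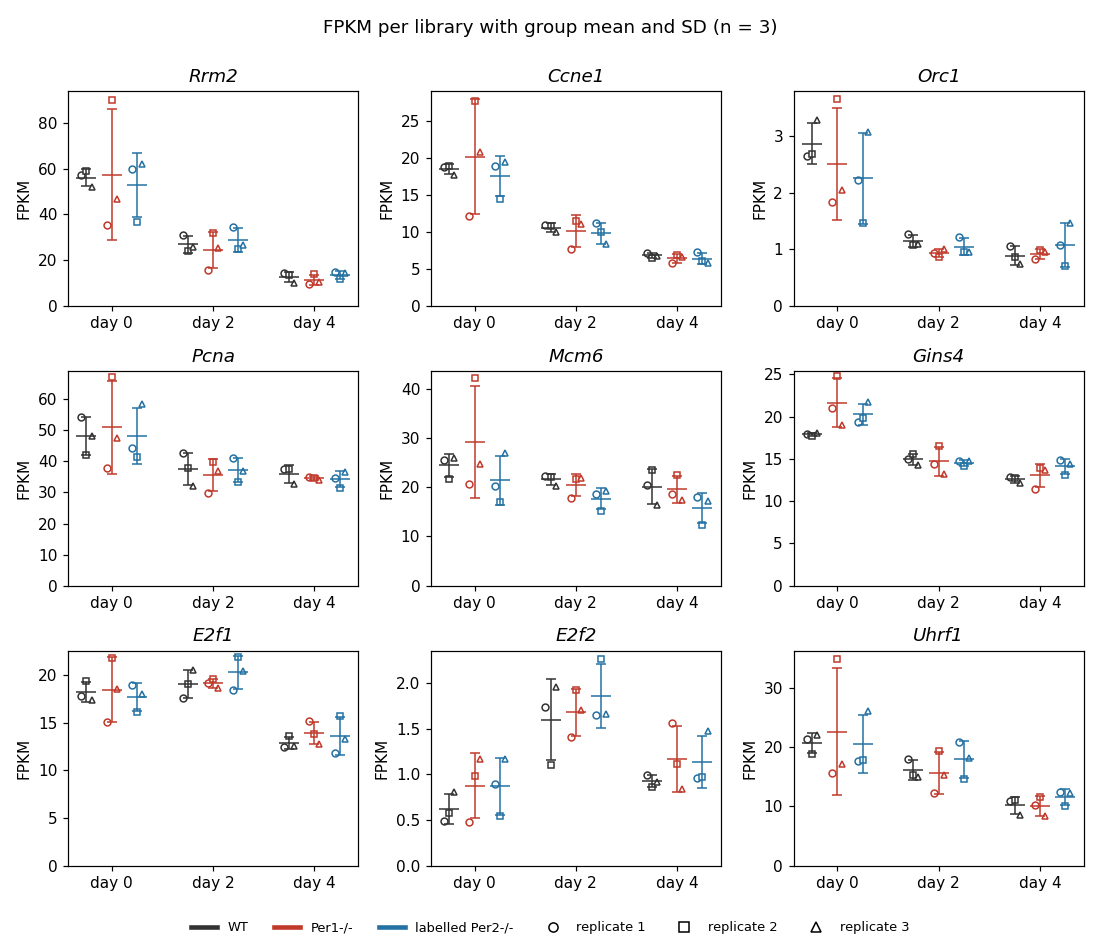
FPKM of 9 members in each library (symbols give the replicate number) with the mean and SD of each group (n = 3) on days 0, 2, and 4 in WT (black), *Per1*-/- (red), and *Per2*-/- labelled cells (blue). *Rrm2*, *Ccne1*, and *Orc1* step down from day 0 to day 2, the *Uhrf1* and *E2f1* points of WT cells on day 4 lie under those of day 0, and *E2f2* peaks on day 2 in each genotype. The highest red point on day 0 in 8 of the 9 panels is the *Per1*-/- library numbered 2.

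Between days 2 and 4 few members passed the test. In WT cells *Rrm2* and *Rrm1* were called lower (2 members, background 1.59%, with 1.62% higher), and *Rrm2* alone was called in *Per1*-/- cells (1 member, background 1.06%, with 1.38% higher) and in the libraries labelled *Per2*-/- (1 member, background 1.74%, with 2.32% higher). Libraries with the same number went together across these days in WT and in *Per1*-/- cells. With the replicate number as a block, 9 members were called lower in WT cells (*Rrm2*, *Rrm1*, *Uhrf1*, *Ccne1*, *Ccne2*, *Tk1*, *Cdc45*, *Cdc6*, and *Mcm10*) and 3 in *Per1*-/- cells (*Rrm2*, *Uhrf1*, and *Ccne1*). The share of all genes called with the block was not computed, so these counts have no background. Leaving out 1 of the 6 WT libraries at a time left 0 to 1 members called, with 1 call without the day 2 libraries numbered 1 or 2 or the day 4 library numbered 2, and 0 without each of the others.

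No member was called between genotypes on any day. Over the 9 comparisons between genotypes within a day, limma called 0 of the 42 members, where the share of all tested genes called in either direction was 0.0134%, 0.0067%, and 0.0201% on day 0 (*Per1*-/- against WT, *Per2*-/- labelled against WT, and *Per1*-/- against *Per2*-/- labelled cells), 0.0067%, 0.0268%, and 0.0737% on day 2, and 0.0268%, 0.0067%, and 0.556% on day 4. At an unadjusted p under 0.05, 1 member was found in each of 2 of these comparisons and 0 in the other 7, with day 0 backgrounds in the same order of 4.82%, 3.94%, and 5.97%, day 2 backgrounds of 2.75%, 2.87%, and 8.22%, and day 4 backgrounds of 6.19%, 3.42%, and 13.2%. These were *Gins4* on day 0, at 21.1, 24.8, and 19 FPKM in *Per1*-/- and 18, 17.7, and 18.1 in WT cells (log2 fold change 0.26, adjusted p = 0.860), and *Orc6* on day 4, at 8.1 ± 0.438 in *Per1*-/- and 10.5 ± 1.82 in WT cells (-0.36, adjusted p = 0.805). The fitted differences ranged from -0.24 to 0.38 between *Per1*-/- and WT cells on day 0, from -0.33 to 0.30 on day 2, and from -0.36 to 0.52 on day 4. The interaction contrasts, which set the change from day 0 in either knockout against that in WT cells, also gave 0 called members on both days, and 0% of all genes were called. At an unadjusted p under 0.05 they gave 1 member, *Gins4*, for *Per1*-/- cells on day 2 (-0.29, unadjusted p = 0.0376), with backgrounds of 2.05% and 3.35% for *Per1*-/- and 2.91% and 2.61% for *Per2*-/- labelled cells on days 2 and 4. voom weights on the fragments gave 0 members in all these comparisons as well. The larger number of calls in *Per1*-/- than in WT cells on days 2 and 4 is therefore not a tested difference between the genotypes.

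*Per1*-/- cells had the largest spread between replicates on day 0. The median SD of the members on the log2 scale was 0.52 there, compared with 0.12 in WT cells, while over all tested genes it was 0.25 and 0.17. The *Per1*-/- library numbered 2 was the highest of the 9 libraries of day 0 for 39 of the 42 members, with *Rrm2* at 90.1 FPKM, and the *Per1*-/- library numbered 1 was the lowest for 28. The mean log2 level over the members was 3.62 in the library numbered 2 and 2.68 to 3.33 in the other 8. On day 2 the *Per1*-/- library numbered 1 was the lowest for 31 members. The mean of the 30 mitosis genes was also highest in the *Per1*-/- library numbered 2 on day 0, at 4.24.

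Calls in *Per1*-/- cells depended on these libraries. Without the 3 *Per1*-/- libraries numbered 2, an alternative chosen after the data were seen, 7 members were called lower on day 2, 16 on day 4, and 0 between days 2 and 4. When single libraries were left out, the count on day 2 was 27 without the day 0 library numbered 1, 5 without the day 0 library numbered 2, and 7 without the day 2 library numbered 1. The count on day 4 was 17 without the day 0 library numbered 2. In the libraries labelled *Per2*-/-, the count on day 2 went from 6 to 3 without the day 0 library numbered 3 or the day 2 library numbered 2.

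**Figure D4:**
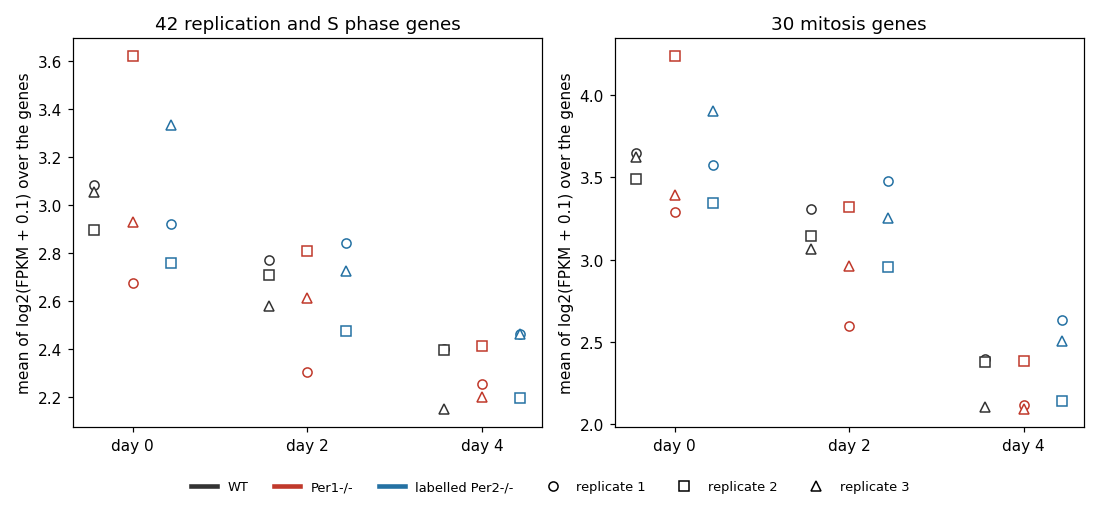
Mean of log2(FPKM + 0.1) over the 42 members (left) and over 30 mitosis genes (right) in each library by day, with colors for the genotype and symbols for the replicate number. The *Per1*-/- library numbered 2 of day 0 is the highest point in both panels, at 3.62 and 4.24, and the members span 2.15 to 2.47 on day 4. The 9 libraries of day 4 lie below the 9 of day 0 in both panels under the scaling of the authors.

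Other genes of the pathway were described for comparison. Of 43 other replication genes, 14 were called lower and 1 higher in WT cells on day 4 (background 20.9% and 22.9%), with a median log2 fold change of -0.38. *Dbf4*, which activates the CDC7 kinase, fell by 0.89 on the log2 scale on day 2 and *Rpa1*, a subunit of the single-strand binding protein RPA, by 0.64. *Orc5* and *Mcm9* rose on day 2 by 0.68 and 0.68. Among 30 other G1/S regulators, 17 were called lower and 5 higher on day 4 in WT cells (background 20.9% and 22.9%). *Cdkn1c*, an inhibitor of cyclin-dependent kinases, rose from 40.9 ± 15.2 FPKM on day 0 to 256 ± 40.6 on day 2 (log2 fold change 2.71, limma adjusted p = 6.42e-08). *Tfdp2*, a partner of E2F proteins, rose by 2.08 and *Cdkn2c*, another kinase inhibitor, by 1.09 on day 2. *Myc* fell by 1.57, *E2f6*, a repressive E2F, by 1.15, and the inhibitor gene *Cdkn2a* by 1.09. Kinase inhibitor genes were thus found among the higher and the lower genes.

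Mitosis genes, which act after S phase, had more calls than the members by day 4. In WT cells 29 of 30 were called lower on day 4 (background 20.9%, median log2 fold change -1.31) and 9 on day 2 (background 19.7%, median -0.44). *Anln*, *Prc1*, and *Ube2c* fell by 1.35, 0.79, and 0.74 on day 2. *Mki67* and *Top2a* are named here after their values were seen. *Mki67* had 22.7, 22.1, and 23.5 FPKM in WT cells on day 0, 24.2, 22.4, and 21.6 after 2 days, and 14.5, 12.5, and 10.6 after 4 days. *Top2a* had 26.6, 24, and 25.1, then 26.6, 25.1, and 22, then 13.4, 13.2, and 10.3. Both were called lower on day 4 and not on day 2. Under the *Per1*-/- and *Per2*-/- labels, 30 and 29 mitosis genes were called lower on day 4 (background 20.4% and 18.8%). The difference between the lists was not tested.

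Markers of macrophages and neurons moved over the same days. In WT cells, 16 of 20 macrophage markers were called higher on day 4 (background 22.9%) and 0 lower (background 20.9%). Their summed level was 262.5 to 570 FPKM on day 0 and 732 to 1273 on day 4. In *Per1*-/- cells 19 of 20 were called higher on day 4 (background 22.6%), and the sum was 242 to 1311 FPKM on day 0 and 1440 to 2535 on day 4. The sum was 162 to 659 FPKM and 553 to 948 in the libraries labelled *Per2*-/-, with 9 of 20 called higher (background 21.6%). Of the genes that define macrophages, *Adgre1* went from 4.08 to 21.4 FPKM between days 0 and 4 in WT cells, *Csf1r* from 6.54 to 32.7, and *Itgam* from 0.428 to 1.78. Of 14 neuron markers, 9 were called higher in WT cells on day 4 (background 22.9%), and 2 were too low to be tested. *Tubb3* was at 22.3 FPKM on day 0 and 124 on day 4. Of the 12 tested, 3 were fitted below their day 0 level in WT cells on day 4, and 0 were called lower. In *Per1*-/- cells 1 was called lower on day 4. *Stmn2* was called lower in WT cells on day 2, at -1.57 on the log2 scale. Of 14 fibroblast markers, 3 were called lower and 7 higher in WT cells on day 4 (background 20.9% and 22.9%). No macrophage, neuron, or fibroblast marker was at 0 in all libraries of a day. The part of these cells in the lower levels of the members was not tested.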

How the data were processed

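RNA of 27 MEF samples (3 genotypes, 3 days, 3 biological replicates each) was sequenced by the authors as non-directional paired-end poly-A libraries. The values used were FPKM as deposited by the authors, who aligned the reads to GRCm38 (mm10) with HISAT2 2.0.5, counted them with featureCounts 1.5.0-p3, and computed FPKM with size factors. The product of the deposited FPKM and gene length was a whole multiple of a unit per library for 100% of values (tolerance 0.001), which gave the fragments.

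Values were converted to log2(FPKM + 0.1), so that fold changes of low genes are understated, and 14932 genes averaging 0.5 FPKM or more were tested with limma 3.58.1 (R 4.3.3; lmFit, contrasts.fit, and eBayes with trend) in 1 model of 9 groups. The Benjamini-Hochberg adjustment ran over all tested genes, and the fit was tested on simulated data. FPKM is scaled by gene length, and levels are compared between genes on that scale only.

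Groups and replicate numbers follow the labels. Within a genotype, libraries with the same number had correlations of their deviations from the group means of -0.02 to 0.29 between days. All 3 pairs were over 0.1 for days 0 and 2 and for days 2 and 4 in *Per1*-/- cells and for days 2 and 4 in WT cells. Within a day, 3 of 27 pairs of genotypes were over 0.1, and these were not paired.

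The members and the comparison lists were chosen with earlier results of these data known. Values per library are given for the 2 members of each role with the highest mean FPKM (3 for licensing), the 3 with the largest and the 3 with the smallest change in WT cells on day 2, and members called against the common direction, and for up to 3 called genes per direction of a comparison list. Alternatives were 2 pseudocounts, 2 filters, 2 scalings, voom weights, no minimum fold change, a replicate block, a fit of 2 groups, and leaving out libraries. Promoters came from RefSeq tables (GRCm38.p6), and shared exonic bases from GENCODE annotation of the same build. One item is not reported here.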

Additional observations from a re-analysis of the deposited data

How the results depend on the processing

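The median of the members on day 4 lay below that of all genes in each genotype. TPM multiplies all genes of a library by 1 factor, so this gap could hardly change and is no check of the scaling. Counts of called members varied with the setting, and shares of all genes called were computed for the main fit only. Under TPM the members called lower were 2 in WT, 2 in *Per1*-/-, and 1 in *Per2*-/- labelled cells on day 2, 10, 17, and 11 on day 4, and 4 in *Per1*-/- and 4 in *Per2*-/- labelled cells between days 2 and 4, and those called higher in WT cells were 3 on day 2 and 1 on day 4. With TPM, the members fitted below their day 0 level in WT cells went from 36 to 13 on day 2 and from 40 to 36 on day 4. Only for the members with values per library are the WT log2 fold changes that turned positive listed here. On day 2 they were 0.074 for *Pcna*, 0.12 for *Mcm4*, 0.26 for *Mcm6*, 0.36 for *Dnmt1*, 0.17 for *Mcm7*, and 0.067 for *Uhrf1*. Others on day 2 were 0.17 for *Gins4*, 0.0024 for *Rrm1*, 0.38 for *Lig1*, 0.28 for *Pola2*, and 0.18 for *Pold1*. On day 4 they were 0.10 for *Mcm6*, 0.18 for *Dnmt1*, and 0.16 for *Pole2*.

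The other counts that moved by over 1.5 times were as follows. Between days 2 and 4 in WT cells, 1 member was called lower with a pseudocount of 1 or of 0.01, 0 without a filter, 9 with the replicate block, and 6 in a fit of the 2 groups alone. In *Per1*-/- cells the count between days 2 and 4 was 0 without a filter, 2 without a minimum fold change, 3 with the replicate block, and 0 in the fit of 2 groups, which also gave 6 lower and 0 higher on day 2. With a pseudocount of 1, 0 were higher on day 2 in *Per1*-/- cells. In the libraries labelled *Per2*-/-, no minimum fold change gave 10 on day 2 and 2 between days 2 and 4, and the replicate block gave 3 between days 2 and 4, where its numbers were not taken as pairs. The block moved no other count of calls by over 1.5 times. Without the *Per1*-/- libraries numbered 2, the counts were 7, 16, and 0 for day 2, day 4, and days 2 to 4. Where causes are not given by the construction of an alternative, the cause was not tested.

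Leaving out single libraries gave 5 to 7 members called lower in WT cells on day 2, 16 to 23 on day 4, and 0 to 1 between days 2 and 4, 5 to 27, 17 to 34, and 0 to 2 in *Per1*-/- cells, with 0 to 1 higher on day 2, and 3 to 9, 14 to 24, and 0 to 2 in *Per2*-/- labelled cells. The count between days 2 and 4 in *Per1*-/- cells was 2 without the day 2 library numbered 1 and 0 without the day 2 libraries numbered 2 or 3 or the day 4 libraries numbered 1 or 3, and in *Per2*-/- labelled cells it was 2 without the day 2 library numbered 2 and 0 without the day 2 library numbered 3 or the day 4 libraries numbered 1 or 3. The WT log2 fold change on day 2 then ranged from -0.072 to 0.20 for *Ccne2*, from -0.13 to 0.0074 for *Dnmt1*, from -0.095 to 0.0087 for *Lig1*, and from -0.14 to 0.19 for *Pole2*. Counts between genotypes and for interactions were 0 under each alternative. Depth limits the lowest members most, with 22 fragments of *Fen1* and 45 of *E2f2* in their lowest libraries.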
